A study of Homo sapiens with 12 samples.

Results

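The histone genes of the HIST clusters were followed in 2 human prostate cancer cell lines sorted by the brightness of a green fluorescent protein (GFP). Members were all genes whose symbol begins with HIST1H, HIST2H, HIST3H or HIST4H, and 63 of the 18950 genes in the table met this rule. Of these, 47 carry a HIST1 name, 12 a HIST2 name, 3 a HIST3 name and 1 a HIST4 name. By product, 5 encode the linker histone H1, 16 encode H2A, 17 H2B, 13 H3 and 12 H4. The rule used symbols alone and no measured value.

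The study asked how cells with active and inactive Wnt/β-catenin signaling differ in their transcripts. The 4 groups were GFP high DU145 cells, GFP low DU145 cells, GFP high PC3 cells and GFP low PC3 cells, with 3 libraries each. DU145 and PC3 are established lines grown from metastases of human prostate carcinoma. In both lines the brightest 10% of cells by GFP were taken as signaling active and the dimmest 10% as inactive. All cells grew in DMEM with 10% serum and no other treatment was named. The sources used here do not give the reporter construct, the number of clones behind each line, or whether the 3 libraries of each group are separate cultures. The p-values therefore rest on the spread among these libraries alone, part or all of which may be technical.

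Chromatin is built from nucleosomes, in which DNA wraps around a core of H2A, H2B, H3 and H4, and H1 binds the DNA that links one core to the next. Most HIST cluster genes are replication-dependent: they are short, lack introns and are transcribed mainly in S phase, when new DNA has to be packaged. Their usual mRNA ends just past a stem-loop, bound by the stem-loop binding protein SLBP, and carries no poly(A) tail, although many of these genes can also give longer polyadenylated transcripts. The sources used here do not state whether poly(A) RNA was selected.

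The stem-loop letters are shown first, because they mark the end of the usual transcript. The stem-loop consensus was searched on the sense strand of the transcripts of GENCODE release 29 (GRCh38), and it was found in 32 of the 63 members, in 6 forms. The lines below give 1 gene for each form, with the 16 bases of the element in capitals and 5 flanking bases on each side.
HIST2H2BE: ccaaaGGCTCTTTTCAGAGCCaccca
HIST1H2BD: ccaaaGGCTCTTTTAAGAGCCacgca
HIST1H4H: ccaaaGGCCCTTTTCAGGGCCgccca
HIST2H4A: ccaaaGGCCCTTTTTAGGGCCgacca
HIST1H2AG: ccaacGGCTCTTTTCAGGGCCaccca
HIST1H3E: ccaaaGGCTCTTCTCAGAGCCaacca
The form of HIST2H2BE was found in 17 members, those of HIST1H2BD and HIST1H4H in 5 each, that of HIST2H4A in 3, and those of HIST1H2AG and HIST1H3E in 1 each. For 23 of the 32 genes a transcript that holds the element continues for at least 100 bases past it. In the other 31 members the letters did not lie within an annotated transcript, which for many of these genes ends close to the coding sequence.

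Promoters were read from RefSeq (GRCh38.p14), as 250 bases before to 50 after the start, for 57 of the 63 members. The motifs of 4 kinds named next were sought on both strands. The TATA letters TATAAA were in 64.9% of the 57 windows and in 11.5% of all 35116 promoters of the table. The CCAAT letters were in 84.2% against 34.6%, the octamer ATTTGCAT in 40.4% against 1.77%, and the H1 box AAACACA in 14% against 5.64%. They followed histone class: the octamer was in 10 of 15 H2A and 12 of 16 H2B windows but in 0 of 10 H4 windows, CCAAT was in 1 of 10 H4 windows and in every window of the other classes, and the H1 box was in 5 of 5 H1 windows. The windows below belong to H1, H2B, H3 and H4 genes described later, with these motifs in capitals on whichever strand they lie. The window of HIST1H2BC also holds the annotated start of HIST1H2AC, which is transcribed the other way. Their windows overlap, and the shared octamer was counted for both genes, as in other such pairs. That of HIST1H4H holds none of the motifs.
HIST1H1C (chr6:26056421-26056720, minus strand): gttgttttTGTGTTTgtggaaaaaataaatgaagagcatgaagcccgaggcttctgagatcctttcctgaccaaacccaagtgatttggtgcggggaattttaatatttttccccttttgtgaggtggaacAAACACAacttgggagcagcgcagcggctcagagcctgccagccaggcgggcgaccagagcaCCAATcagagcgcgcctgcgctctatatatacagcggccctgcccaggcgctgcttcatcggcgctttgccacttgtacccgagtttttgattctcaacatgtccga
HIST1H2BC (chr6:26123877-26124176, minus strand): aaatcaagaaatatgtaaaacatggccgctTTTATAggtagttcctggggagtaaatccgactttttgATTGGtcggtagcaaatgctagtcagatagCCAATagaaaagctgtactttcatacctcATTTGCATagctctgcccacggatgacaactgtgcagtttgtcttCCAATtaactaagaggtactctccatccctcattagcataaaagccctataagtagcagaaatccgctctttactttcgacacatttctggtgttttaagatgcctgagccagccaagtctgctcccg
HIST2H2BE (chr1:149886633-149886932, minus strand): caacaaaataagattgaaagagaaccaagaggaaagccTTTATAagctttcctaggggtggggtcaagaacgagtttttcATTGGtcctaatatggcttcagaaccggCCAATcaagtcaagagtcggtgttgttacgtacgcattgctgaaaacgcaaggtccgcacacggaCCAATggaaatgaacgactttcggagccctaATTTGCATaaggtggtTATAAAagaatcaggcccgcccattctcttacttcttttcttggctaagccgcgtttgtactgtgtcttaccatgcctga
HIST1H3H (chr6:27809801-27810100, plus strand): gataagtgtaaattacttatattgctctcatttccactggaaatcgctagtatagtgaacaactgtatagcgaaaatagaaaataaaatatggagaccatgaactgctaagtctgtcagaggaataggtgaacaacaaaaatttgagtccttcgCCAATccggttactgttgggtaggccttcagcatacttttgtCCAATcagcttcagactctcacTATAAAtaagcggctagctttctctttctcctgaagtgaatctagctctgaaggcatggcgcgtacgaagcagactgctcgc
HIST1H4H (chr6:26285485-26285784, minus strand): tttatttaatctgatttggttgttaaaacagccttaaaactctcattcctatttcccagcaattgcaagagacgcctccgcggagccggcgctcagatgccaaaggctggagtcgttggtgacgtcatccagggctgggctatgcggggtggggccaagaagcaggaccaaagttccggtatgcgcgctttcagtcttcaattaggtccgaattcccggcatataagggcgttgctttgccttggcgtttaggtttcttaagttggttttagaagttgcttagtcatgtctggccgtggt

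Levels are given in CPM, that is, counts on a per-million scale with the scaling of each library that the deposited values carry. Estimated library totals ran from 13453614 to 21528810 counts, and on the deposited scale 3 counts in a library equal 0.13 to 0.233 CPM. GFP high DU145 replicate 3 and GFP low PC3 replicate 2 stood apart from the other libraries of their groups, with correlations down to 0.970 and 0.968 over genes. The keratins KRT8 and KRT18 were expressed in all 4 groups, whereas EPCAM, CDH1, the leukocyte gene PTPRC, the endothelial gene PECAM1 and KLK3 averaged at most 0.381 CPM in any group. In the fit across all genes, 59 members had a value above the library's lowest in at least 3 of the 12 libraries and were tested, and 56 of them reached 3 counts in at least 3 libraries. HIST3H3, HIST1H1T, HIST1H2AK and HIST1H4D were not, having at most 6 estimated counts summed over any group. Each of the 59 was above the lowest value in more than 1 group.

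Histone genes of all 5 classes rose in GFP high DU145 cells, whereas 0 passed as higher in GFP high PC3 cells. In DU145, 23 of 59 members (39%) were higher in GFP high cells and 1 was lower, while over all 16424 genes tested 9.47% were higher and 9.66% lower, 19.1% in all (limma, Benjamini-Hochberg adjusted p under 0.05). In PC3, 0 were higher and 1 was lower, against 3.04% and 3.91% of all genes (6.95% in all); 1 member was higher and 5 were lower at an unadjusted p under 0.05, and limma-voom on the estimated counts also called 0 higher and 1 lower. A single member was higher in PC3 under 5 alternatives, each time from few reads: HIST1H4K with the GC and length trend removed, with and without a replicate block, and without GFP high DU145 replicate 3 or GFP low PC3 replicate 1, and HIST1H3J without GFP low PC3 replicate 2. The median log2 fold change of the 59 members was 1.35 in DU145 and -0.13 in PC3, beside 0.02 and -0.05 over all genes. Scaling the libraries to equal medians shifted the DU145 median of all genes to -0.17, and then 20 members were higher and 1 lower, with a median of 1.15. With every gene of the table fitted and no minimum, 19 of the 63 members were higher and 1 lower in DU145, against 7.54% and 7.84% of 18950 genes. In bulk RNA, more cells of one kind, such as cells in S phase, and more RNA per cell cannot be told apart.

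**Figure D1:**
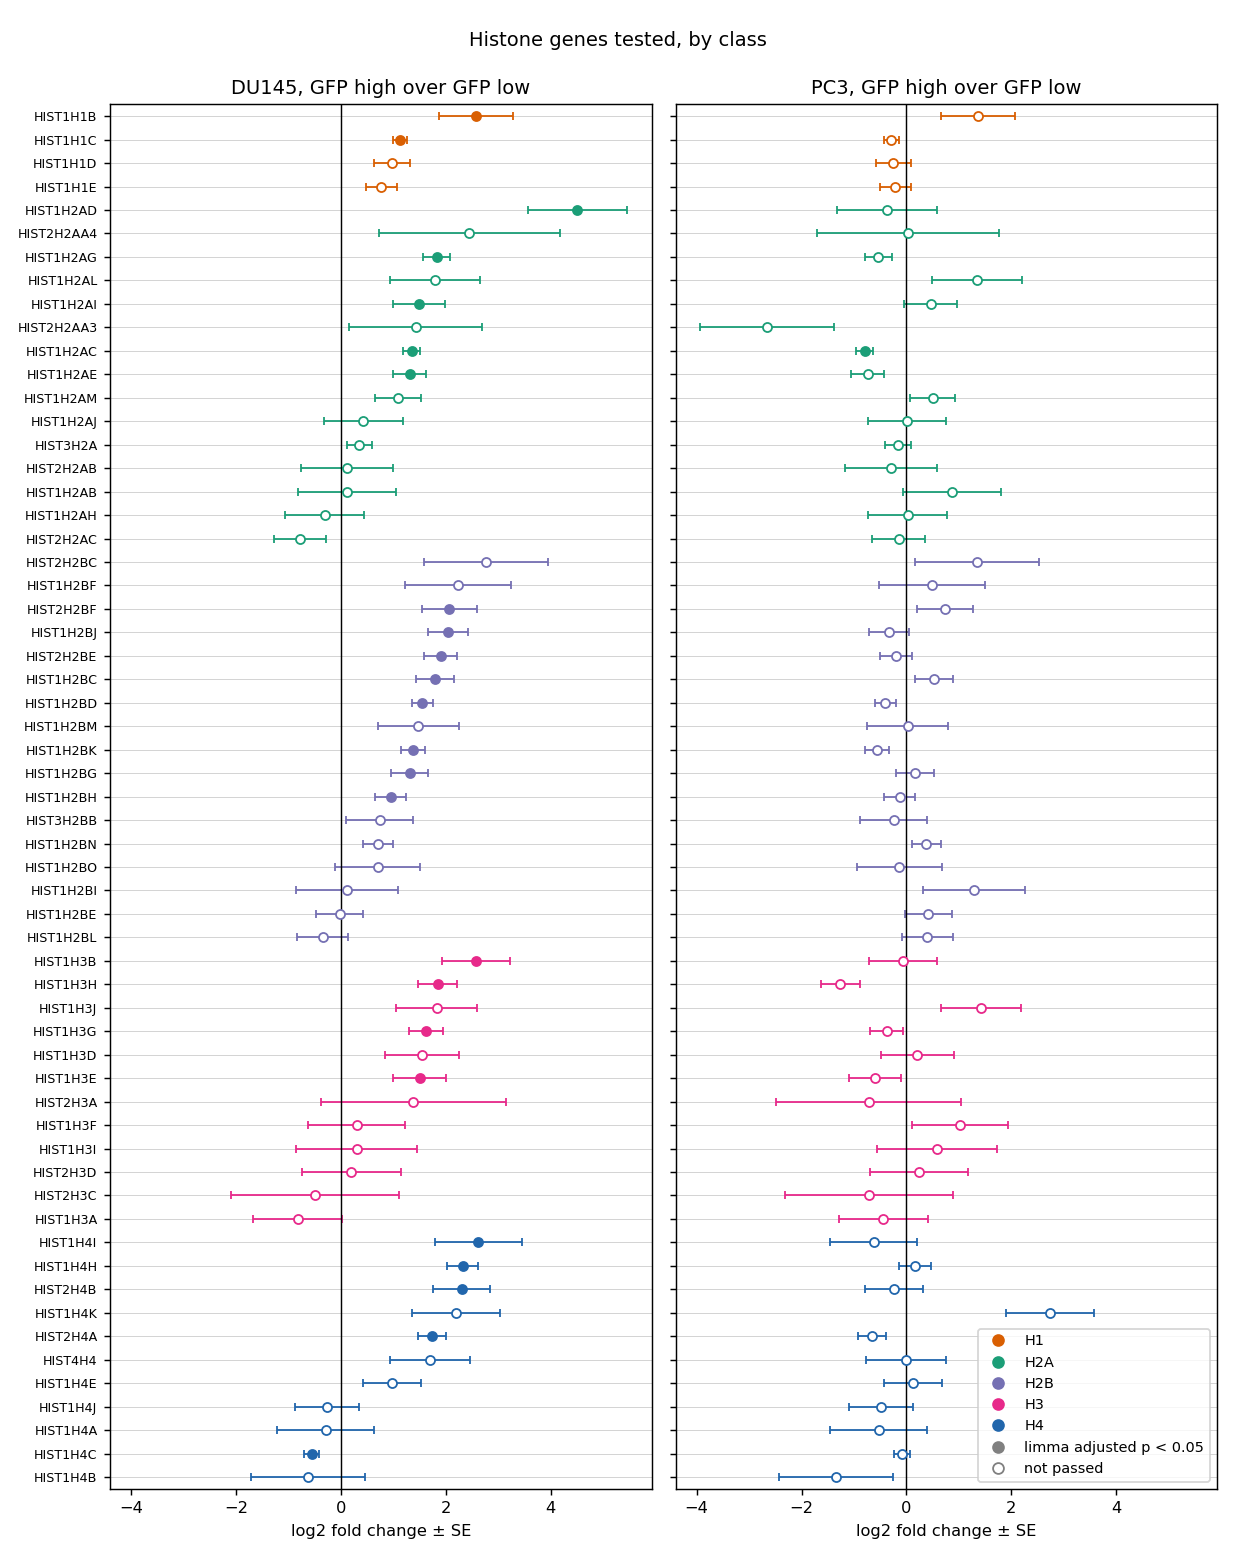
Log2 fold change of GFP high over GFP low cells (x axis, with SE) for the 59 histone genes tested, grouped by class, in DU145 (left) and PC3 (right); filled points passed limma's adjusted p under 0.05. In DU145, 23 filled points lie right of 0 and 1, HIST1H4C, lies left of it; in PC3 the 1 filled point is HIST1H2AC, left of 0.

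**Figure D2:**
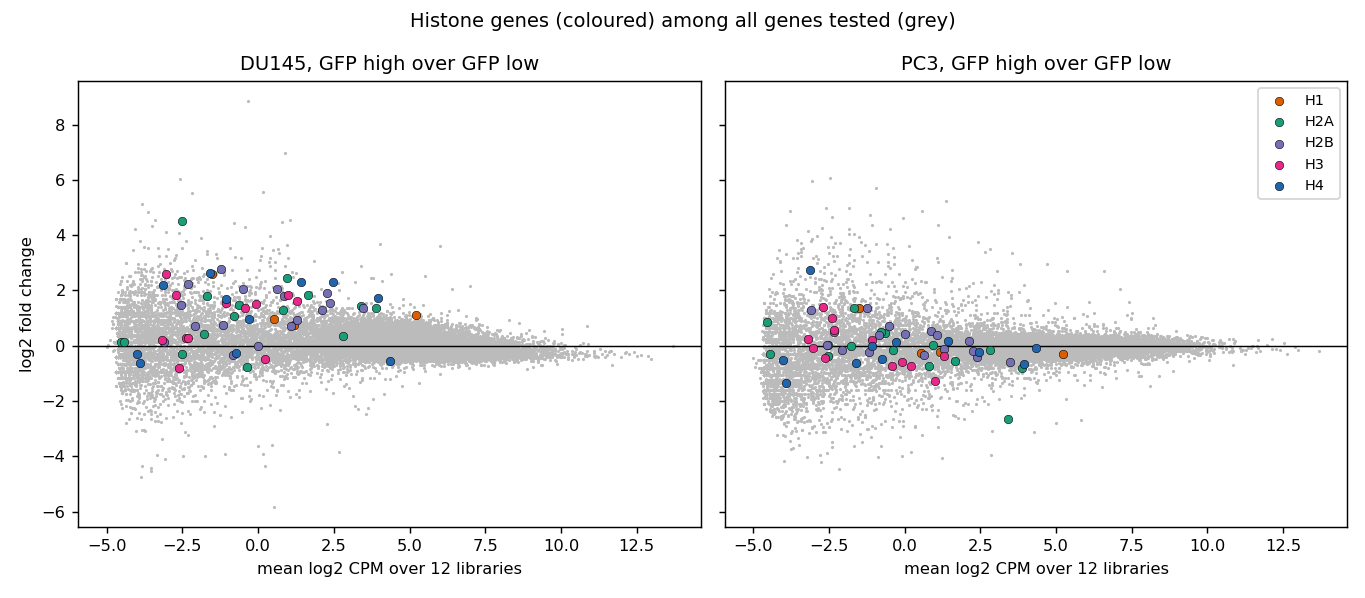
Log2 fold change (y axis) against mean log2 CPM over 12 libraries (x axis) for all 16424 genes tested (grey) and the 59 histone genes (coloured by class), in DU145 (left) and PC3 (right). The coloured points have a median of 1.35 in DU145 and -0.13 in PC3.

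Summed over all 63 genes, histone reads reached 726, 727 and 857 CPM in the 3 GFP high DU145 libraries, against 324, 305 and 325 CPM in the GFP low ones. The ratio of the means was 2.42. In PC3 the sums were 92.9, 97.3 and 84.2 CPM in GFP high libraries and 109, 115 and 106 CPM in GFP low libraries, a ratio of 0.832. The sorts did not overlap in either line, and they were ordered in opposite ways. Without HIST1H1C, the gene with the most reads, the ratios were 2.56 and 0.834. These sums are descriptions and were not tested.

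**Figure D3:**
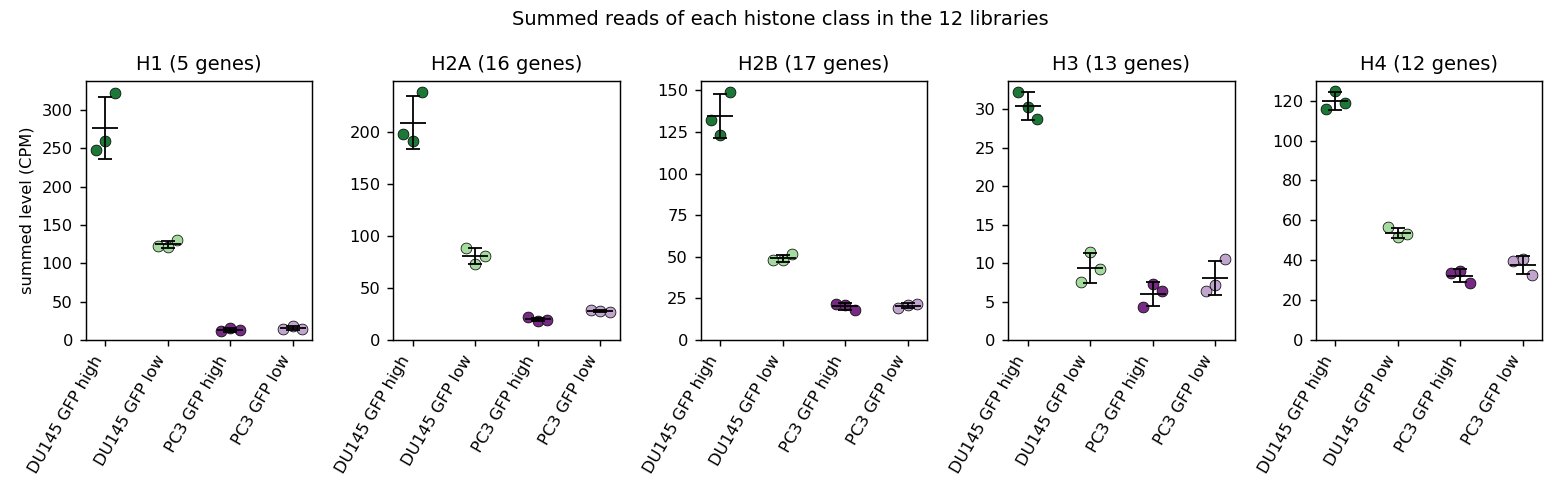
Summed level in CPM (y axis, from 0) of the genes of each histone class in every library (points), with group mean and SD (bars, n = 3), for GFP high and low DU145 and GFP high and low PC3. In all 5 classes each GFP high DU145 library lies above each GFP low DU145 library.

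All 5 classes took part in DU145. H3 sums averaged 30.4 ± 1.81 CPM in GFP high cells, against 9.39 ± 1.89 CPM in GFP low DU145 cells (SD, n = 3 each, here and for the other classes). H2B sums were 135 ± 13.3 CPM in GFP high cells, against 49.2 ± 2.04 CPM in GFP low cells. H2A sums were 209 ± 25.4 CPM in GFP high cells, against 81.0 ± 7.79 CPM in GFP low cells. H4 sums were 120 ± 4.38 CPM in GFP high cells, against 53.8 ± 2.45 CPM in GFP low cells, and H1 sums 276 ± 40.0 CPM in GFP high cells, against 125 ± 4.87 CPM in GFP low cells. The ratios ran from 2.21 for H1 to 3.24 for H3. In PC3 the GFP high to low ratios ran from 0.706 for H2A to 0.981 for H2B, and the sorts did not overlap for H2A alone. By test, 2 of 4 H1, 5 of 15 H2A, 8 of 17 H2B, 4 of 12 H3 and 4 of 11 H4 genes were higher in GFP high DU145 cells. By cluster, 19 of 44 HIST1 genes and 4 of 12 HIST2 genes were higher, and the HIST2 sum differed 3.13-fold and the HIST1 sum 2.21-fold. Neither of the 2 HIST3 genes tested passed in DU145 in limma's test or at an unadjusted p under 0.05, and HIST4H4 had a log2 fold change of 1.70 (unadjusted p = 0.0436, adjusted p = 0.13).

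The linker histone gene HIST1H1C (chr6:26055787-26056428, GRCh38) encodes H1.2. It measured 244, 255 and 316 CPM in GFP high DU145 cells, against 122, 119 and 128 CPM in GFP low DU145 cells. Every GFP high library was above every GFP low one, with a log2 fold change of 1.13 ± 0.14 (SE; limma adjusted p = 0.00041). In PC3 it measured 6.43, 7.92 and 6.57 CPM in GFP high cells, against 8.24, 10.6 and 7.02 CPM in GFP low cells, and the sorts overlapped. HIST1H1B, which encodes H1.5, had 23, 25 and 29 reads in GFP high and 5, 5 and 3 reads in GFP low DU145 cells, and also rose (2.58 ± 0.71, adjusted p = 0.0244), a call that was lost without GFP high replicate 1 or 2 or GFP low replicate 1 or 3 (adjusted p up to 0.0965). HIST1H1D and HIST1H1E, encoding H1.3 and H1.4, had estimates of 0.97 ± 0.34 and 0.77 ± 0.30 in DU145 that missed the threshold (adjusted p = 0.0627 and 0.082), although their sorts did not overlap.

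Among H2A genes, HIST1H2AC (chr6:26124145-26139116) moved in opposite directions in the lines. It measured 39.6, 44.3 and 47.8 CPM in GFP high DU145 cells, against 21.2, 15.9 and 15.2 CPM in GFP low DU145 cells, a log2 fold change of 1.35 ± 0.16 (limma adjusted p = 0.000177). In PC3 it measured 6.01, 6.2 and 5.96 CPM in GFP high cells, against 12.4, 9.12 and 10.3 CPM in GFP low cells, and fell by 0.80 ± 0.16 on the log2 scale (adjusted p = 0.00621). In neither line did the sorts overlap. The log2 change differed by 2.14 ± 0.22 between the lines (adjusted p = 4.42e-05).

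HIST1H2AG (chr6:27133042-27135291) measured 6.26, 8.47 and 6.32 CPM in GFP high cells, against 2.21, 1.52 and 2.21 CPM in GFP low DU145 cells, and rose by 1.83 ± 0.26 (limma adjusted p = 0.000784). HIST1H2AE (chr6:26216975-26217483) measured 6.83, 5.51 and 7.57 CPM in GFP high cells, against 3.12, 2.23 and 2.67 CPM in GFP low DU145 cells, and rose by 1.31 ± 0.31 (adjusted p = 0.0133), which was lost without GFP high DU145 replicate 1 or GFP low DU145 replicate 3 (adjusted p up to 0.0631). In PC3 all GFP high libraries were below all GFP low libraries for both genes, with estimates of -0.54 ± 0.26 and -0.74 ± 0.31 that missed the threshold (adjusted p = 0.258 and 0.19). That order held in PC3 for 4 of 59 members and for 21.1% of all genes tested. HIST1H2AD rose in DU145 from few reads: it had 29.9, 20.75 and 11.47 estimated counts in GFP high and 0, 0 and 2.89 in GFP low DU145 libraries (adjusted p = 0.00855), and its fold is not given because the GFP low libraries lay at the floor. HIST3H2A measured 10.9, 9.49 and 15.4 CPM in GFP high cells, against 8.94, 8.55 and 10 CPM in GFP low DU145 cells, which overlapped (0.35 ± 0.24, adjusted p = 0.313).

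H2B held the most called genes. HIST1H2BD (chr6:26158146-26171349) measured 14.6, 15.8 and 15.1 CPM in GFP high cells, against 5.42, 5.26 and 4.84 CPM in GFP low DU145 cells, and rose by 1.55 ± 0.20 (limma adjusted p = 0.00041). HIST2H2BE (chr1:149884459-149886652) measured 22, 20.7 and 21.9 CPM in GFP high cells, against 4.88, 6.1 and 6.49 CPM in GFP low DU145 cells, and rose 3.72-fold (log2 1.90 ± 0.31, adjusted p = 0.00193). The replicates of each sort lay close together beside the distance between sorts. HIST1H2BK (chr6:27146418-27146798) measured 54.7, 44.7 and 67.3 CPM in GFP high cells, against 22.1, 22.1 and 19.6 CPM in GFP low DU145 cells, and rose by 1.37 ± 0.23 (adjusted p = 0.00264). HIST1H2BJ (chr6:27125897-27132750) measured 5.06, 7.32 and 9.58 CPM in GFP high cells, against 1.55, 1.71 and 1.88 CPM in GFP low DU145 cells, and rose by 2.05 ± 0.38 (adjusted p = 0.00448). In PC3 the sorts overlapped for these 4 genes, with log2 estimates of -0.40 ± 0.20 for HIST1H2BD, -0.20 ± 0.31 for HIST2H2BE, -0.57 ± 0.23 for HIST1H2BK and -0.34 ± 0.38 for HIST1H2BJ.

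The H3 gene HIST1H3H (chr6:27810064-27811300) measured 8.81, 6.6 and 7.72 CPM in GFP high cells, against 1.97, 1.9 and 2.53 CPM in GFP low DU145 cells, and rose 3.61-fold (log2 1.85 ± 0.37, limma adjusted p = 0.00651). In PC3 it measured 0.392, 0.564 and 1.15 CPM in GFP high cells, against 1.66, 1.37 and 1.52 CPM in GFP low cells. The PC3 sorts did not overlap, in the opposite order, and the estimate of -1.26 ± 0.37 missed the threshold (adjusted p = 0.055). Every GFP high PC3 library lay below every GFP low one for 21.1% of all genes tested. The difference between lines was 3.11 ± 0.52 (adjusted p = 0.00206). HIST1H3G (chr6:26269405-26271815) measured 6.12, 6.54 and 6.25 CPM in GFP high cells, against 1.67, 2.42 and 2.14 CPM in GFP low DU145 cells, and rose by 1.62 ± 0.32 (adjusted p = 0.00675).

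H4 genes went both ways in DU145. HIST1H4H (chr6:26277609-26285638) measured 14.3, 12.4 and 12.1 CPM in GFP high cells, against 2.15, 2.81 and 2.86 CPM in GFP low DU145 cells. This was a 5-fold rise (log2 2.32 ± 0.30, limma adjusted p = 0.00041), and in PC3 the gene measured 1.04, 1.69 and 1.28 CPM in GFP high cells, against 1.6, 0.864 and 1.16 CPM in GFP low cells, which overlapped. HIST1H4C (chr6:26103876-26104310) was the only member to fall in DU145: it measured 17.3, 15.1 and 17.6 CPM in GFP high cells, against 27.4, 22.2 and 24.5 CPM in GFP low DU145 cells (log2 -0.56 ± 0.15, adjusted p = 0.0234). The sorts did not overlap, but the call was lost when any 1 of 4 DU145 libraries was left out (GFP high replicate 1 or 2, GFP low replicate 1 or 3), with an adjusted p up to 0.0973. In PC3 HIST1H4C measured 21.1, 21.7 and 16.5 CPM in GFP high cells, against 22.7, 23.7 and 17 CPM in GFP low cells. Without HIST1H4C, the H4 sum averaged 103 ± 5.62 CPM in GFP high cells, against 29.1 ± 0.53 CPM in GFP low DU145 cells, a ratio of 3.55, where the full class had 2.23.

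The HIST2 genes include 3 pairs of near-identical copies, and the deposited values divided reads between them in ways that changed from library to library. HIST2H3C, for instance, measured 10.3, 0.0301 and 11.4 CPM in the 3 GFP high DU145 libraries. Values of the single copies are therefore uncertain. Alone in DU145, HIST2H4A (1.74 ± 0.27) and HIST2H4B (2.30 ± 0.55) passed. HIST2H2AA3 (1.43 ± 1.27, limma adjusted p = 0.46), HIST2H2AA4 (2.45 ± 1.73, adjusted p = 0.338), HIST2H3A and HIST2H3C did not. Yet HIST2H2AA3 measured 111, 102 and 136 CPM in GFP high cells, against 46.7, 38.6 and 44.1 CPM in GFP low DU145 cells. The sorts did not overlap for HIST2H2AA4 either. The fit shares its estimate of spread over all 4 groups, and HIST2H2AA3 measured 5.18, 0.0269 and 1.77 CPM in GFP high PC3 cells. The call of HIST2H4B was lost without GFP high DU145 replicate 1 or 2 or GFP low DU145 replicate 3 (adjusted p up to 0.0767). Summed, HIST2H4A and HIST2H4B measured 80.2, 93.3 and 84.8 CPM in GFP high cells, against 24.5, 24.7 and 23.1 CPM in GFP low DU145 cells (log2 1.83 ± 0.10, adjusted p = 1.31e-07), and 8.82, 8.67 and 9.13 CPM in GFP high cells, against 13.4, 13.2 and 12.2 CPM in GFP low PC3 cells (-0.54 ± 0.10, adjusted p = 0.00447). HIST2H2AA3 and HIST2H2AA4 together measured 126, 116 and 155 CPM in GFP high cells, against 50, 42 and 46.3 CPM in GFP low DU145 cells (1.52 ± 0.16, adjusted p = 5e-05), and 5.18, 3.57 and 3.79 CPM in GFP high cells, against 6.61, 5.61 and 6.42 CPM in GFP low PC3 cells (-0.59 ± 0.16, adjusted p = 0.0354). Both sums thus rose in DU145 and fell in PC3. HIST2H3A and HIST2H3C together rose in DU145 (1.88 ± 0.43, adjusted p = 0.0119) and did not pass in PC3 (-0.73 ± 0.43, adjusted p = 0.373). Summing was chosen after the split had been seen.

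**Figure D4:**
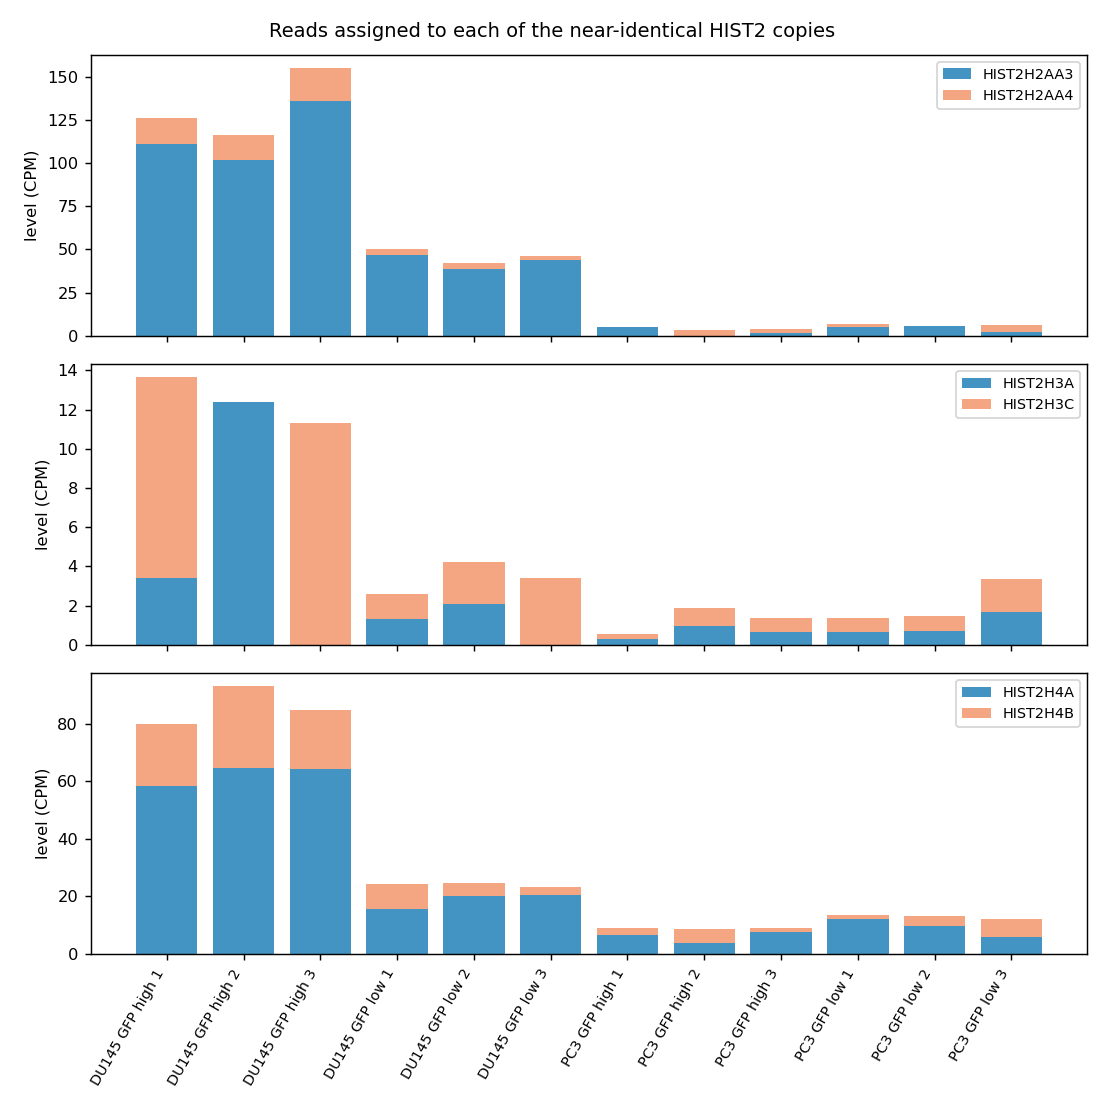
Level in CPM (y axis, from 0) assigned to each gene of 3 near-identical HIST2 pairs in the 12 libraries (x axis), stacked so that the bar height is the pair's sum. In DU145 the share of each copy varies most for HIST2H3A and HIST2H3C, which are split equally in every PC3 library. In PC3 it varies most for HIST2H2AA3 and HIST2H2AA4. The sums are higher in every GFP high DU145 library than in every GFP low one.

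The change itself differed between the lines for 13 of 59 members, always higher in DU145, where 4.76% of all genes differed in that direction. The 13 were HIST1H1C, the H2A genes HIST1H2AC, HIST1H2AD, HIST1H2AE and HIST1H2AG, the H2B genes HIST1H2BD, HIST1H2BJ, HIST1H2BK and HIST2H2BE, the H3 genes HIST1H3G and HIST1H3H, and the H4 genes HIST1H4H and HIST2H4A. No member had a lower change in DU145 than in PC3 in limma's test or with limma-voom, against 6.09% of all genes, and 1 did at an unadjusted p under 0.05. HIST1H4C was lower in this sense with a replicate block and with the GC and length trend removed. The lines also differed in level, averaged over the sorts: 24 members were higher and 2 lower in DU145 than in PC3, against 34.2% and 31.4% of all genes (65.6% in all), and with quantile normalization the split was 21 higher and 7 lower. HIST1H1C stood 4.57 ± 0.10 higher in DU145 on the log2 scale and HIST1H2BK 3.23 ± 0.16, whereas the H1 genes HIST1H1D and HIST1H1E were lower in DU145, by a log2 difference of -1.91 ± 0.24 and -1.27 ± 0.21. HIST1H4C did not differ detectably (0.00 ± 0.11, adjusted p = 0.977; 95% interval -0.23 to 0.23).

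The called genes were spread along the HIST1 cluster. H2A and H2B genes often lie head to head there, with starts 219 to 331 bases apart, and 10 such pairs were tested over all clusters. Both partners rose in DU145 in 3 pairs (HIST1H2BC with HIST1H2AC, HIST1H2BG with HIST1H2AE, HIST1H2BJ with HIST1H2AG), 1 partner passed as higher in 4 pairs and neither in 3. The call of HIST1H2BG (1.31 ± 0.36) was lost without GFP high replicate 1 or 2 or GFP low replicate 1 or 2 of DU145, and that of HIST1H2AE as given above (adjusted p up to 0.0901 and 0.0631). In the pair of HIST2H2BE and HIST2H2AC, HIST2H2BE rose by 1.90 ± 0.31, while HIST2H2AC measured 0.885, 0.994 and 1.2 CPM in GFP high cells, against 1.49, 1.45 and 2.47 CPM in GFP low DU145 cells (-0.78 ± 0.50, limma adjusted p = 0.293). Likewise HIST1H2BK rose by 1.37 ± 0.23 beside HIST1H2AH at -0.31 ± 0.76. Of 18 other genes tested within the HIST1 span, 1 was higher in GFP high DU145 cells, the zinc finger gene ZNF322 (1.07 ± 0.16, adjusted p = 0.00136), and 0 were lower (at an unadjusted p under 0.05, 1 higher and 1 lower); in PC3 0 passed by limma, with 2 higher and 0 lower at an unadjusted p under 0.05.

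**Figure D5:**
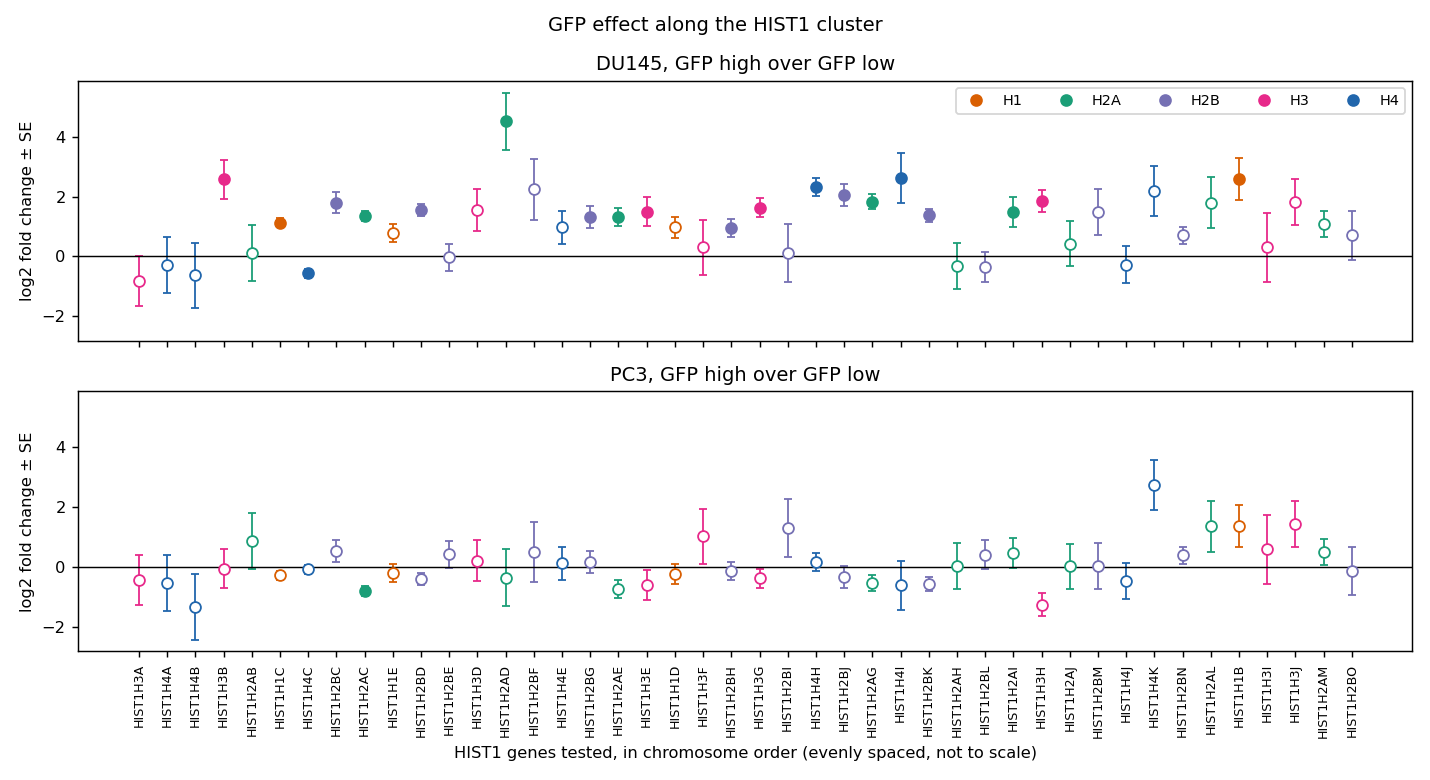
Log2 fold change of GFP high over GFP low cells (y axis, with SE) for the 44 HIST1 genes tested, in chromosome order and evenly spaced (x axis), in DU145 (top) and PC3 (bottom); filled points passed limma's adjusted p under 0.05. The 19 rises in DU145 are spread over the cluster, and unfilled genes lie between them.

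The length annotated past the stem-loop and the read count moved with the calls. Among genes annotated at least 100 bases past the stem-loop, 14 of 23 were higher in GFP high DU145 cells (median log2 fold change 1.62). This was so for 3 of 8 genes annotated less far past it (1.37), and for 6 of 28 without stem-loop letters in an annotated transcript (0.87). Over all genes tested 9.47% were higher. The distance was counted only within transcripts that hold the letters. HIST1H2BD (39 bases past them) and HIST1H2BJ (no letters found) have several transcripts and gene spans that reach much further, so these groups do not sort genes by where the annotated gene ends. Of members with at least 100 estimated counts over all libraries, 20 of 38 were higher, against 3 of 21 with fewer. Calls also grew with level over all genes. In DU145, 15.4% were called in either direction with no minimum and 29.7% at a mean log2 value of at least 0. At a log2 value of at least 4 in 3 libraries the share was 36.2%. The octamer was in the promoters of 11 of 13 H2A and H2B genes that rose in DU145 and of 11 of 17 that did not, and TATAAA in 10 of 13 and 11 of 17. These windows are not independent, because head-to-head partners can share a site. HIST1H2BC and HIST1H2AC share their octamer, as do HIST1H2BG and HIST1H2AE, and HIST1H2BJ and HIST1H2AG, and it was counted for both genes. The parts of annotated length past the stem-loop, read count and motif in the result were not tested.

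GC content moved with the DU145 change over the whole table: the log2 fold change had a Spearman's rho of -0.47 with GC over 16392 genes in DU145 and -0.12 in PC3, across genes, which are not independent replicates. Histone genes are GC-rich (median 57.6%, against 49.1% for all genes). With all genes split by GC into 5 equal bins, lowest GC to highest, their median DU145 log2 change was 0.48, 0.18, -0.04, -0.19 and -0.25, and that of the 1, 8, 13, 8 and 28 members in those bins was 0.71, 1.56, 1.83, 0.85 and 0.73. Called higher in DU145 were 0, 5, 11, 2 and 5 of them, in the same order. The GC-richest bin thus held 28 members but only 5 of the 23 called higher. With the trend in GC and length removed, 23 members were called higher and 1 lower in DU145, beside 5.46% and 9.01% of all genes. Leaving out GFP high DU145 replicate 1 brought the number of members called to 13, beside 4.69% of all genes, and leaving out GFP low DU145 replicate 3 to 15, beside 5.13%. With all libraries 24 were called beside 19.1%, and without GFP high DU145 replicate 3 there were 25 beside 33.1%.

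Histone genes outside the clusters, many of which are expressed outside S phase as well, were read beside them. Of 11 tested, 0 passed in DU145 in either direction (limma; 1 higher and 2 lower at an unadjusted p under 0.05), with a median log2 fold change of -0.08. This count depended on the scaling: it was 2 higher and 2 lower with the GC and length trend removed, 0 and 2 with equal medians, and 2 and 0 with quantile normalization. In PC3, 1 of the 11 was higher and 1 lower, and with the GC and length trend removed 7 were higher and 0 lower, beside 8.60% and 5.53% of all genes. H2AFX, which encodes the H2A.X variant phosphorylated at DNA breaks, averaged 428 ± 77.8 CPM in GFP high cells, against 458 ± 58.9 CPM in GFP low DU145 cells, and H2AFZ, encoding H2A.Z, averaged 239 ± 21.5 CPM in GFP high cells and 236 ± 20.2 CPM in GFP low cells. In PC3 the macroH2A gene H2AFY2 rose to 8.61 ± 0.113 CPM in GFP high cells, against 0.857 ± 0.0955 CPM in GFP low cells (log2 3.34 ± 0.14, limma adjusted p = 4.13e-09), and H2AFJ fell (-0.51 ± 0.14, adjusted p = 0.0471), although the H2AFJ call was lost when any 1 PC3 library, GFP high DU145 replicate 2 or any 1 GFP low DU145 library was left out (adjusted p up to 0.162), and also with equal medians, with no minimum and with the GC and length trend removed. In DU145 H2AFY2 averaged 43.8 ± 2.11 CPM in GFP high cells, against 58.3 ± 5.91 CPM in GFP low cells (adjusted p = 0.0514).

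Genes that act on histone mRNA or carry histone proteins were called in DU145 in 3 of 19 and 4 of 20 cases, beside 19.1% of all genes. Of 19 genes for histone mRNA transcription and 3' end processing, 1 rose and 2 fell in DU145 and 0 passed in PC3 (1 higher and 1 lower at an unadjusted p under 0.05). The riser was XRN1, a 5' to 3' exonuclease, at 13.6 ± 5.39 CPM in GFP high cells, against 6.34 ± 1.09 CPM in GFP low DU145 cells (log2 1.03 ± 0.32, limma adjusted p = 0.0389), and the others were the cleavage factor gene CSTF2 (-0.33 ± 0.08) and SRRT (-0.34 ± 0.08). SLBP averaged 111 ± 6.21 CPM in GFP high cells, against 115 ± 4.47 CPM in GFP low DU145 cells (adjusted p = 0.611). NPAT, the coactivator of histone gene transcription, averaged 17.2 ± 5.1 CPM in GFP high DU145 cells and 10.3 ± 1.71 CPM in GFP low DU145 cells (adjusted p = 0.082). CASP8AP2, which encodes the histone processing factor FLASH, averaged 10.3 ± 4.55 CPM in GFP high DU145 cells and 4.84 ± 0.0526 CPM in GFP low DU145 cells (adjusted p = 0.0652). Of 20 histone chaperone and carrier genes, NAP1L1 rose (0.32 ± 0.10) and CABIN1, HIRA and IPO4 fell in DU145 (-0.43, -0.42 and -0.44), and 0 passed in PC3 (1 higher and 1 lower at an unadjusted p under 0.05). These counts moved with single libraries: without GFP high DU145 replicate 1 the first list had 0 higher and 1 lower and the second 0 and 2, and without GFP high DU145 replicate 3 they had 6 and 5, and 4 and 7. With equal medians the first list had 1 higher and 4 lower and the second 0 and 10, beside 5.43% and 18.3% of all genes. Removing the trend in GC and length took XRN1 to 0.34, CSTF2 to -0.18 and SRRT to -0.11 and ended their calls. That of XRN1 was also ended by limma-voom and by leaving out GFP high replicate 1 or 2 or any 1 GFP low library of DU145, or replicate 1 of either PC3 sort (adjusted p up to 0.181). The calls of IPO4 and NAP1L1 were lost without GFP high replicate 1 or 2 or GFP low replicate 1 or 3 of DU145 (adjusted p up to 0.0601 and 0.203), and that of NAP1L1 also without any 1 GFP high PC3 library or GFP low PC3 replicate 1, with equal medians and with no minimum. That of SRRT was lost without GFP high DU145 replicate 1 or 2 (adjusted p up to 0.0595), and that of CSTF2 without GFP high DU145 replicate 2 or GFP low DU145 replicate 1 (0.0638). NAP1L1 stood at -0.38 with the GC and length trend removed.

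Of 30 other S phase genes tested, 1 was higher and 9 were lower in GFP high DU145 cells, beside 9.47% and 9.66% of all genes, with a median log2 fold change of -0.15. The one higher was RFC4, a subunit gene of the clamp loader, picked out after its values were seen (0.38 ± 0.11, limma adjusted p = 0.0321, lost without GFP high replicate 1 or 2 or GFP low replicate 1 or 3). The replication helicase gene MCM5 averaged 383 ± 43 CPM in GFP high cells, against 547 ± 51.3 CPM in GFP low DU145 cells (log2 -0.52 ± 0.11, limma adjusted p = 0.00856). The replication gene CDC45 (-0.45 ± 0.08), the thymidylate synthase gene TYMS (-0.40 ± 0.07) and the ribonucleotide reductase gene RRM2 (-0.30 ± 0.08) also fell. Without GFP high DU145 replicate 1 or GFP low DU145 replicate 3 the list had 0 higher and 3 lower, beside at most 2.39% and 2.73% of all genes. Without GFP high DU145 replicate 3 it had 5 and 13, beside 16.7% and 16.4%, with quantile normalization 1 and 3, beside 5.66% and 5.15%, and with equal medians 0 and 13, beside 5.43% and 18.3%. The RRM2 call was lost without GFP high replicate 1 or GFP low replicate 1 or 3 of DU145 (adjusted p up to 0.0995). In PC3, RRM2 rose (0.30 ± 0.08, adjusted p = 0.0314, up to 0.148 without single libraries) and 0 of the 30 fell in limma's test, with 1 lower at an unadjusted p under 0.05; with the GC and length trend removed 9 were higher and 1 lower, beside 8.60% and 5.53% of all genes.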

How the data were processed

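RNA was measured by sequencing in 12 libraries, made from extracted total RNA per the labels (selection not given), 3 per group, grouped by their labels. The deposited table gives, per the labels, log2 normalized counts. Its lowest value per library and the next step above it lie where 0 and 1 count plus an offset of 0.5 would, so the deposited log2 numbers were taken as log2 CPM. The counts recovered were whole, within 0.01, for 83.4% of nonzero values in the median library. STAR and DESeq2 are named, without versions, in the submitters' processing notes; the sources used here give neither the genome build nor how reads were counted. CPM printed for single genes is the deposited value out of the log2 scale and includes the offset of 0.5; class sums leave it out. The floor of 3 counts covers counting error only; the interval printed is limma's and covers the spread among libraries.

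Genes above their library's lowest value in at least 3 of the 12 libraries entered limma 3.58.1 under R 4.3.3 (trend, 4 group means, 8 residual degrees of freedom, two-sided, Benjamini-Hochberg adjustment over all genes of a contrast), and the procedure was tested on simulated data. Contrasts compared GFP high with GFP low cells within each line, the difference of these effects, and DU145 against PC3 over both sorts. Coordinates are from GENCODE release 29 (62 of 63 members matched by Ensembl identifier), promoters from RefSeq.

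Members and gene lists were chosen with earlier results of these data known. Named members are the 10 with the smallest p among those called in each sort contrast, 6 in each other contrast, the highest in each class and the 8 highest in all; from each list up to 4 per sort contrast, with SLBP, NPAT, CASP8AP2, H2AFX and H2AFZ always. HIST1H1B, HIST1H1D, HIST1H1E, HIST1H2AD, HIST1H2BC, HIST1H2BG, HIST1H2AH, HIST2H2AA4, HIST2H2AC, HIST2H3A, HIST2H3C, HIST4H4, HIST1H2BL, HIST1H3B, HIST1H3J, HIST1H4K, RFC4 and ZNF322 were added after their values were seen. Alternatives were other minimums, scalings, offsets and variance models, limma-voom, a replicate block and leaving out libraries.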

Additional observations from a re-analysis of the deposited data

Results flagged for a closer look

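The GFP effect differed between the lines by limma's test of the difference (log2 fold change in DU145 minus that in PC3, adjusted p under 0.05) for 13 histone genes of the clusters. The difference was 1.42 for HIST1H1C. Among H2A genes it was 2.14 for HIST1H2AC, 2.37 for HIST1H2AG, 2.05 for HIST1H2AE and 4.88 for HIST1H2AD. This last is a fitted value over DU145 GFP low libraries at the floor, gives no size of the difference, and ran from 2.0 to 5.82 under the alternatives. Among H2B genes it was 2.39 for HIST1H2BJ, 1.95 for HIST1H2BD, 2.09 for HIST2H2BE and 1.93 for HIST1H2BK. For H3 it was 1.99 for HIST1H3G and 3.11 for HIST1H3H, and for H4 2.16 for HIST1H4H and 2.40 for HIST2H4A.

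In the other lists the effect also differed between the lines. It was -3.74 for the macroH2A gene H2AFY2. In the processing and chaperone lists it was -0.37 for SRRT, -0.52 for CSTF2, -0.40 for CABIN1 and -0.46 for HIRA. In the S phase list it was -0.48 for TYMS, -0.58 for CDC45, -0.65 for MCM5, -0.51 for MCM4, -0.61 for RRM2 and 0.62 for POLA1, the DNA polymerase alpha gene. The calls of this difference were lost for HIST1H2AD, SRRT, CABIN1, HIRA, MCM5 and POLA1 when some single libraries were left out, with adjusted p up to 0.0846, 0.1, 0.0986, 0.0744, 0.0519 and 0.0725.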

How the results depend on the processing

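No member called in DU145, in PC3 or in the difference changed sign in that contrast under the alternatives that tested it. HIST1H3B, not called between lines (-0.25), was called at 0.28 with an offset of 8 counts. HIST2H3C, which was not called alone, ran from -1.94 to 2.34 in DU145 for single libraries left out. In DU145, 24 members were called, beside 19.1% of all genes. At a log2 value of at least 4 in 3 libraries, 7 of the 8 members tested were called, beside 36.2%. At limma's adjusted p under 0.01 there were 13 (share of all genes not given). Leaving out single libraries gave 13 to 26, beside 4.69% to 33.1%. The difference between lines (13, beside 10.8% of all genes) became 6 at the minimum of 4, beside 19.3%. With an offset of 8 counts it became 20, beside 14.9%. Single libraries gave 12 to 16, beside 6.26% to 20.9%. DU145 against PC3 (26, beside 65.6% of all genes) became 7 at the minimum of 4 and 42 with the offset of 8, with 24 to 29 for single libraries. The shares of all genes under these alternatives are not given.

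The PC3 count (1, beside 6.95% of all genes) was 2 at a mean log2 value of at least 0 (9.46%), with robust estimation (6.95%) and with the offset of 8 (8.26%). It was also 2 with the GC and length trend removed under a replicate block (15.5%). It was 3 with that trend removed (14.1%) or with near-identical copies summed (6.97%). For single libraries it was 1 to 2, beside 3.95% to 8.72% of all genes. It was 2 without GFP high DU145 replicate 3, GFP high PC3 replicate 3, or any 1 GFP low PC3 library.

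Same-numbered libraries of the sorts deviated together at -0.1887, 0.3516 and 0.5684 in DU145 and 0.0999, 0.5658 and 0.4998 in PC3, over 7609 genes with a mean log2 value of at least 4, so the numbers were not taken to pair them. With the replicate block 24 members were called in DU145, beside 28.3% of all genes, and 1 in PC3, beside 8.90%. In the difference 17 were called (16 higher, 1 lower), beside 18.8%, and between lines 27 (share of all genes not given). Calls of few-read members are limited by depth. With the GC and length trend removed, NAP1L1 stood at -0.38 in DU145, with and without the block, and at -0.48 in the difference with it, and H2AFX at 0.21 in DU145. The causes of these moves were not tested.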

Other observations

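HIST1H4K was the only member with every GFP high PC3 library above every GFP low one, and it was picked out after its values were seen. It had 4.23, 8.25 and 6.98 estimated counts in GFP high and 1.84, 0 and 0 in GFP low PC3 libraries, which are too few to read as a level, and it did not pass (limma adjusted p = 0.0692). In DU145 it had 0.76, 3.11 and 6.97 estimated counts in GFP high and 0, 1.33 and 0 in GFP low libraries (adjusted p = 0.0801).

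In DU145, 3 members had every GFP high library below every GFP low one (HIST1H4C, HIST2H2AC and HIST1H2BL) and 31 had every one above, beside 18.2% and 16.6% of all genes. In PC3, 4 members lay below and 1 above, beside 21.1% and 11.6%.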
